A study of Mus musculus with 4 samples.

Results

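Translation elongation is the step in which the ribosome adds amino acids one after another, and 10 genes of this machinery and its control were read here from the 5′ ends of RNA in mouse skeletal muscle. The genes were Eef1a1, Eef1a2, Eef1b2, Eef1g, Eef1d, Eef2, Eef2k, Eif4ebp1, Eif4ebp2 and Tpt1. They were chosen by name, and every row of the deposited table with one of these symbols was taken. Of these genes, 10 were present and 0 were without reads, out of 9838 genes in the table. Together they held 49 of 42207 alternative start sites (ASSs), a site being a cluster of nearby read ends with 1 count in each library.

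The libraries came from total RNA of adult muscle of 2 AMPKα2 knockout mice (KO) and 2 AMPKα2 wild-type mice (WT). By the study's methods the mice were male C57BL/6 animals, the muscle was the gastrocnemius, and the whole-body knockout removed a stretch of the catalytic domain of AMPKα2, the product of Prkaa2. AMPK is a kinase that is active when cellular energy is low. Libraries were made by WTSS-seq, in which ribosomal RNA is removed and cDNA is made with template switching at the 5′ end, so a read marks where an RNA or a fragment of it begins. No treatment was given in the labels, and the comparison asks which sites and genes differed between KO and WT.

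In each round of elongation, eEF1A carries an aminoacyl-tRNA to the ribosome, and eEF2 moves the ribosome along the mRNA by 1 codon. The eEF1B complex recharges eEF1A with GTP. Skeletal muscle is known for eEF1A2, the product of Eef1a2, which takes over from eEF1A1 in mature fibres. The kinase eEF2K, activated by calcium and calmodulin and by AMPK, phosphorylates and inactivates eEF2, and the 4E-BP proteins hold back cap-dependent initiation until mTORC1 phosphorylates them. Many of these mRNAs begin with a terminal oligopyrimidine tract (TOP), a C followed by a run of C and T that places their translation under mTORC1.

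The RefSeq promoter windows of 3 of these genes are shown because eEF1A and eEF2 mRNAs are known TOP mRNAs and because the reads described next lay away from these starts. The sequences are from RefSeq on build GRCm38.p6, on the strand of the gene, 30 bases each, and capitals mark the C followed by 4 or more C or T that lay nearest to the annotated start.
Eef1a1, chr9:78481710-78481739, minus strand: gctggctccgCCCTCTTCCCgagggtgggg
Eef1a2, chr2:181157011-181157040, minus strand: tgcctgtttttCTCTCCTggtctgcgttct
Eef2, chr10:81176635-81176664, plus strand: acgtcagcggtCTCTTCCgccgcagccgcc
The tract began 5 bases before the annotated start in Eef1a1, 14 bases before it in Eef1a2 and at base 16 of the transcript in Eef2. Such a run is common: 66.8% of 32851 RefSeq windows held one within 25 bases before to 50 bases after the start, searched on the strand of the gene only. Among the genes described here 7 had windows in the table, 9 windows in all, and 7 of the windows held one. These matches describe the letters and are not mapped start sites.

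Library totals were 1300069 to 2900279 reads, the KO libraries being the deeper. The 10 genes took 2006 and 1494 reads in KO, compared with 748 and 1151 in WT, which was 0.0575% to 0.0734% of a library. A count of 3 reads, taken as the floor of detection, was 1.03 to 2.31 ppm of a library, and this floor covers counting error only. Replicates differed by more than sampling noise, with a chi-square per degree of freedom of 10.5 between the KO libraries and 6.46 between the WT libraries, so each was counted as 1 sample. In both genotypes 15 of 15 muscle markers were detected, among them Acta1 and Ckm, and 0 were called in the comparison of genes with DESeq2 or edgeR, with 0 at an unadjusted p under 0.05 in either. The targeted gene Prkaa2 had 149, 183, 153 and 186 normalized reads in KO 1, KO 2, WT 1 and WT 2 (log2 fold change -0.03, SE 0.50), so its summed reads gave no check of the genotypes.

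Where the reads fell was examined first. Of 48 sites on the strand of their gene, 1 lay within 100 bp of an annotated start, which was 2.08% of the sites and 0.439% of their 5244 reads. Over all 28681 sites of the series with a matched RefSeq start, 3.18% of the sites and 8.85% of the reads lay that near. The exception was Eif4ebp1, with a site 51 bp after its start. For Eef1a1 the nearest site was 333 bp after the start, for Eef1b2 and Tpt1 933 bp, for Eef1a2 1606 bp, and for Eef2 2956 bp. The 5 sites of Eif4ebp2 all lay 21213 to 22867 bp after the start and 1311 to 2965 bp before the end of the gene. The starts of Eef1g, Eef1d and Eif4ebp1 were taken from the bounds of the gene. The share over the series counts only sites with a start in the promoter windows, so the near site of Eif4ebp1 would not enter it. The reads thus describe 5′ ends inside these RNAs far more than ends at their annotated starts.

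By the class codes of the table, 25 of the 49 sites were contained in a transcript (code c), 15 were intronic (i), 6 overlapped an exon and an intron (e), and 1 each was another exonic overlap (o), just outside a gene (p) or antisense to an exon (x). Sites with code e held 44.4% of the reads of the 10 genes, and most of those came from a single site of Eef1a2. These sites made up 12.2% of the sites here and 3.2% of the sites of all genes, while intronic sites made up 30.6% here and 52% in all genes. Sites were 1 to 209 bp wide, with a median of 24 bp. Intronic sites took 19.5% and 10.8% of the reads of the 10 genes in KO, against 9.63% and 6.26% in WT. Over all genes outside mitochondrial and ribosomal RNA the intronic shares were 38.7% and 30.3% in KO, compared with 35.3% and 27.7% in WT, so replicate 1 was above replicate 2 within each genotype.

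On counts summed per gene, Tpt1 was higher in KO and no other gene of the 10 was called. With the Wald test of DESeq2 at an adjusted p under 0.1, 9 of the 10 genes received an adjusted p, 1 was called higher and 0 were called lower. Over all 4688 genes tested, 1.71% were called higher and 0.96% lower, 2.67% in all. At an unadjusted p under 0.05 there were 2 genes, both higher in KO, and the share of all genes at that threshold was not taken. The edgeR test called 1 of 9 genes tested, again Tpt1, where it called 0.883% of all genes. By edgeR 0 were called lower and 0 were lower at an unadjusted p under 0.05. The median log2 fold change of the 9 genes was 0.13, against 0.01 for all genes tested. Of the 10 genes 6 had a log2 fold change above 0 and 4 below 0. Both KO libraries were above both WT libraries in 2 of the 9 tested genes and below them in 1, where 22% and 19.4% of all tested genes were so. With 2 libraries per group, differences of the size of the spread between replicates could not be detected.

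**Figure D1:**
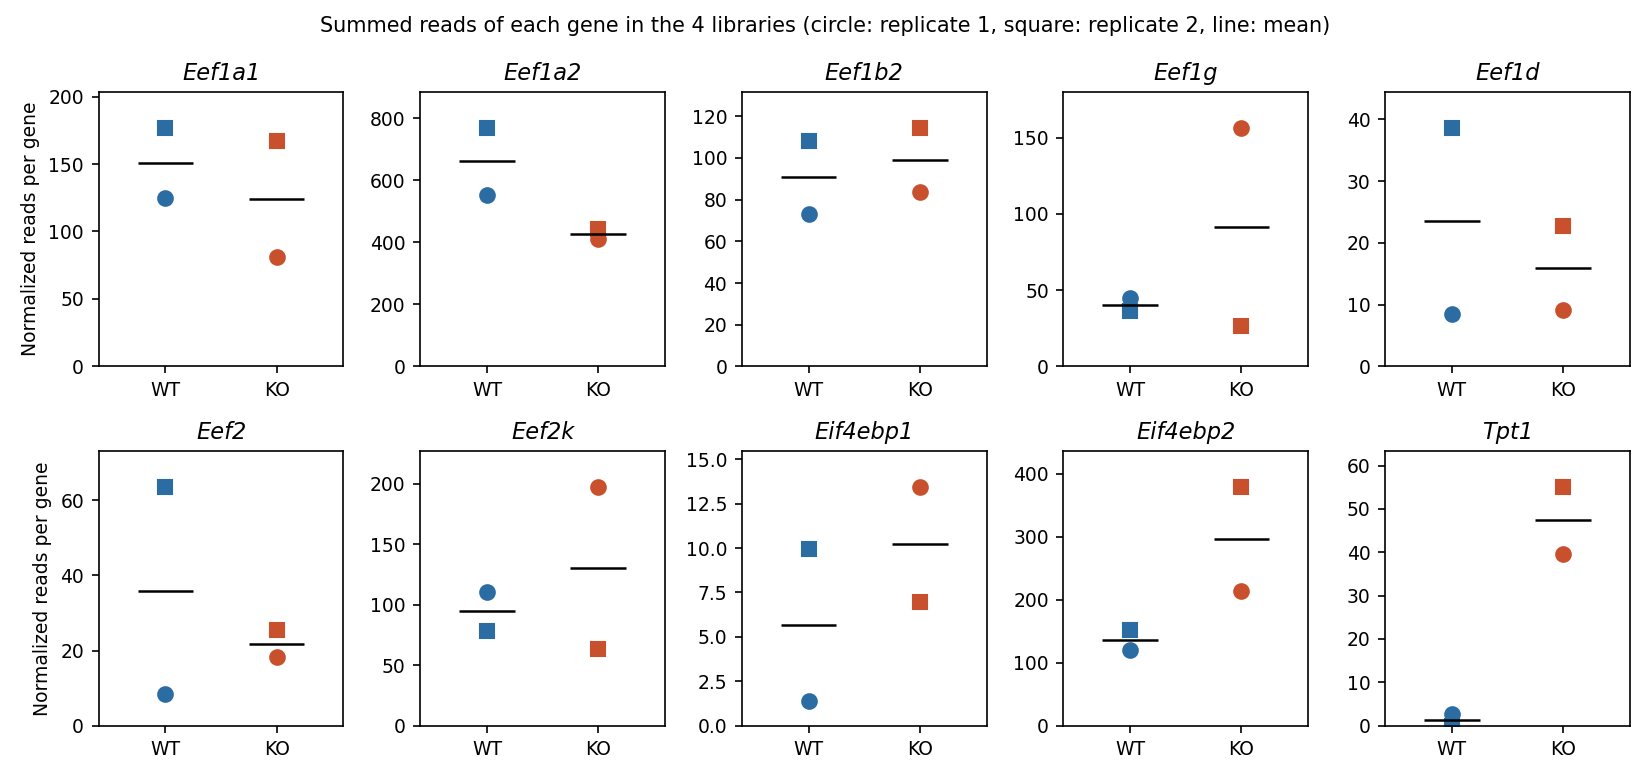
Normalized reads of each gene (vertical axis, reads divided by the DESeq2 size factor, from 0, each gene on its own scale) in the 2 WT and 2 KO libraries, with a line at the group mean. KO and WT do not overlap in Tpt1 and Eif4ebp2, where KO is higher, nor in Eef1a2, where WT is higher, and Eef1g and Eef2k are high in KO replicate 1 only.

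Eef1a2 encodes the muscle form of eEF1A. It had 674 and 509 reads in KO, compared with 395 and 618 in WT, or 412 and 445 normalized reads in KO, compared with 554 and 770 in WT. Normalized, both KO libraries were thus below both WT libraries, but the log2 fold change of -0.63 (SE 0.43) did not pass, with an adjusted p of 0.762 by DESeq2 and 0.686 by edgeR. Its site on chromosome 2 at 181153727 to 181153853, which overlaps an exon and an intron, had 532 and 369 reads in KO, compared with 326 and 508 in WT. This site held 72.5% to 82.5% of the reads of the gene in every library, and its log2 fold change was -0.62 (SE 0.57). A site antisense to an exon, at 181147690 to 181147694 on the plus strand, had 50 and 49 reads in KO, compared with 37 and 19 in WT, so the summed count of Eef1a2 included some reads of the opposite strand.

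Eef1a1, the form that most other tissues use, had 133 and 191 reads in KO, compared with 89 and 142 in WT over 11 sites, the most sites of any of the 10 genes. Its normalized reads were 81.2 and 167 in KO, compared with 125 and 177 in WT, so the groups overlapped. The log2 fold change was -0.29 (SE 0.57), with an adjusted p of 0.983 by DESeq2. Its most used site lay on chromosome 9 at 78480393 to 78480507 with 51, 56, 26 and 47 reads in KO 1, KO 2, WT 1 and WT 2. The intronic site nearest to its start, at 78481388 to 78481407, had 7 and 39 reads in KO, compared with 2 and 3 in WT. Its log2 fold change was 2.62 (SE 1.62), with an adjusted p of 0.734 by DESeq2. Reads of Eef1a1 can be shared with processed pseudogenes of near-identical sequence. The pseudogene Eef1a1-ps1 on chromosome 19 held 87 and 92 reads in KO, compared with 69 and 80 in WT. Only this pseudogene of Eef1a1 was examined, so the level of Eef1a1 is uncertain by an amount that was not measured.

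To compare the paralogs within a library, where no scaling enters, the share of Eef1a2 in the reads of Eef1a1 and Eef1a2 together was taken. It was 83.5% and 72.7% in KO, compared with 81.6% and 81.3% in WT. The means were 78.1% ± 7.64 in KO and 81.5% ± 0.209 in WT (SD, n = 2), a difference of -3.35 percentage points that was smaller than the spread in KO. The exact permutation test, two-sided, gave a p of 1, and 2 against 2 libraries cannot give less than 0.33. Without KO replicate 2 the difference was 2.06 points in the other direction. The share counts read ends and not molecules, since the genes differ in length and in the number of sites. It also includes the antisense reads of Eef1a2 and leaves out the reads at Eef1a1-ps1, both named above.

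The subunits of eEF1B came next. Eef1b2, which encodes the exchange factor eEF1Bα, had 137 and 131 reads in KO, compared with 52 and 87 in WT, a log2 fold change of 0.13 (SE 0.59) with an adjusted p of 0.992 by DESeq2. Its normalized reads were 83.7 and 114 in KO, compared with 72.9 and 108 in WT, and the groups overlapped. The site with most reads, at 63178415 to 63178527 of chromosome 1, had 71, 63, 32 and 35 reads in KO 1, KO 2, WT 1 and WT 2 and a log2 fold change of 0.27 (SE 0.83). At the site nearest to the start, 63177737 to 63177784, there were 41 and 56 reads in KO, compared with 13 and 20 in WT, with an adjusted p of 1.00 by DESeq2. These sites together held most of the reads of Eef1b2 and differed by less than their error.

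Eef1g, the scaffold subunit of eEF1B, had 256 reads in the first KO library and 30 in the second, against 32 and 29 in WT. Its log2 fold change of 1.18 (SE 0.82, adjusted p 0.770 by DESeq2) rested on KO replicate 1, and without that library it was -0.62. An intronic site of 4 bp at 8973959 to 8973962 of chromosome 19 accounted for much of it, with 142 and 6 reads in KO, compared with 3 and 2 in WT. The site had an unadjusted p of 0.00492 with DESeq2 but an adjusted p of 0.127, and it was not tested by edgeR. Without all sites of 10 bp or less, an alternative added after the data were seen, the log2 fold change of Eef1g was -1.09. The broader site contained in its transcript, at 8977949 to 8978000, had 13 and 10 reads in KO, compared with 12 and 25 in WT, and its log2 fold change was -1.40 (SE 1.24). The narrow and the broad sites of Eef1g therefore pointed in opposite directions, and neither passed.

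Eef1d, the other exchange factor of eEF1B, was sparse, with 15 and 26 reads in KO, compared with 6 and 31 in WT. The log2 fold change was -0.57 (SE 1.12), with an adjusted p of 0.979 by DESeq2, and it was 0.89 without WT replicate 2. Its more used site lay on chromosome 15 (75896361 to 75896438) and had 15, 20, 6 and 23 reads in KO 1, KO 2, WT 1 and WT 2. No direction could be given for Eef1d at this depth.

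**Figure D2:**
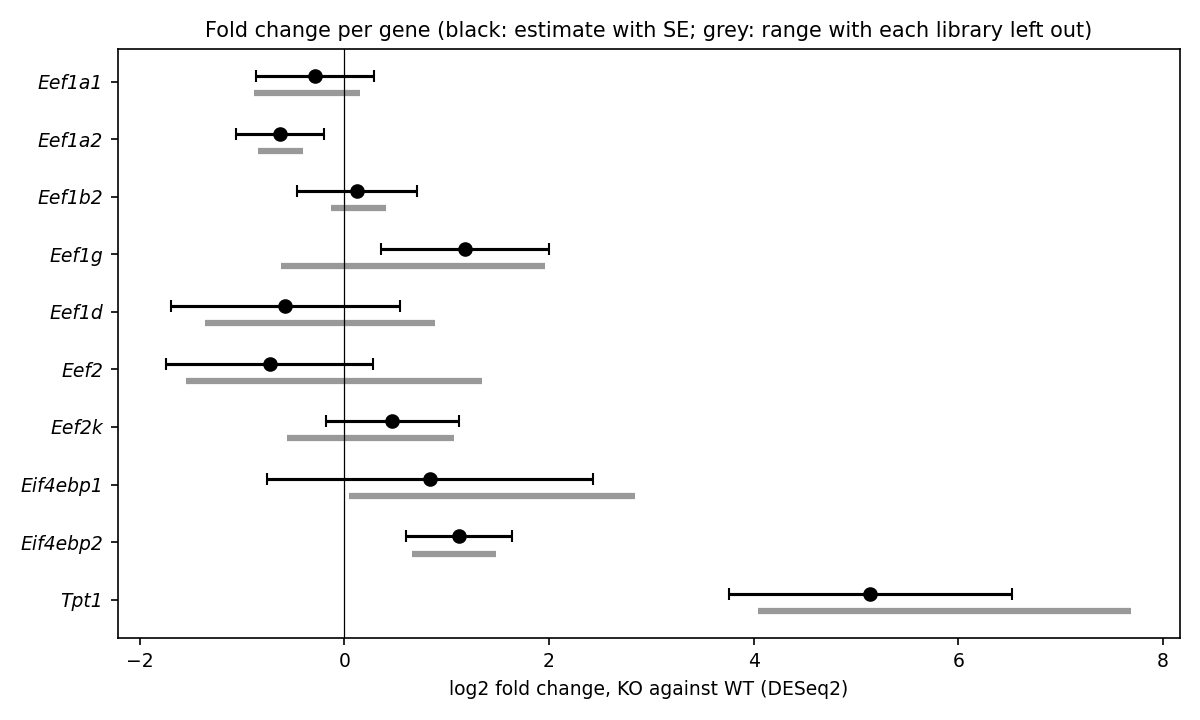
Log2 fold change of KO against WT for each gene (horizontal axis, DESeq2; black points with bars of 1 SE) and the range of the value when each library was left out in turn (grey lines). The estimate of Tpt1 is 5.14, while Eef1a1, Eef1b2, Eef1g, Eef1d, Eef2 and Eef2k change sign when a library is left out.

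Eef2, which encodes the translocating factor eEF2, had 30 and 29 reads in KO, compared with 6 and 51 in WT. The WT libraries lay on either side of both KO libraries, at 8.41 and 63.5 normalized reads against 18.3 and 25.3. Its log2 fold change was -0.73 (SE 1.01), with an adjusted p of 0.951 by DESeq2, and it was 1.34 without WT replicate 2. The site with most reads, on chromosome 10 at 81179537 to 81179628, was also the nearest to the start and had 21, 22, 4 and 41 reads in KO 1, KO 2, WT 1 and WT 2. The level of Eef2 was therefore not comparable between the genotypes in these libraries.

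Eef2k, the kinase of eEF2, had 323 and 73 reads in KO, compared with 79 and 63 in WT. KO replicate 1 stood at 197 normalized reads and the other three libraries at 63.8 to 111. The log2 fold change was 0.47 (SE 0.65, adjusted p 0.951 by DESeq2), and without KO replicate 1 it was -0.56. The site contained in its transcript at 120903805 to 120903839 of chromosome 7, 3381 bp before the end of the gene, had 215 and 32 reads in KO, compared with 19 and 13 in WT. Its log2 fold change of 2.05 (SE 0.97) had an unadjusted p of 0.0343 and an adjusted p of 0.423 with DESeq2. The intronic site nearest to a start, at 120853464 to 120853469, went the other way with 67 and 31 reads in KO, compared with 54 and 48 in WT, a log2 fold change of -0.86 (SE 0.83). The contained site held 66.6% and 43.8% of the reads of Eef2k in KO and 24.1% and 20.6% in WT, yet its use was not called, with a Simes adjusted p of 0.867. A further 2 intronic sites of Eef2k overlap the noncoding gene Gm15774 and held 30 reads together.

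Eif4ebp2 encodes 4E-BP2, a repressor of the cap-binding protein eIF4E. It had 351 and 434 reads in KO, compared with 86 and 122 in WT, or 214 and 379 normalized reads in KO, compared with 121 and 152 in WT. All KO libraries were above all WT libraries, and the log2 fold change was 1.12 (SE 0.51) with an unadjusted p of 0.0292. This did not pass over all genes, with an adjusted p of 0.416 by DESeq2 and 0.446 by edgeR.

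Within Eif4ebp2 a single site was higher in KO. This site, contained in a transcript at 61431439 to 61431486 of chromosome 10 on the minus strand, had 74 and 189 reads in KO, compared with 5 and 5 in WT. The normalized reads were 48.6 and 163 in KO, compared with 6.79 and 5.78 in WT. That was a log2 fold change of 4.08 (SE 0.98), with an adjusted p of 0.00462 by DESeq2. The edgeR adjusted p was 0.117, so the call was made by DESeq2 alone. It was also lost without KO replicate 2, where the log2 fold change was 2.93 and the DESeq2 adjusted p was 1.00.

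The site of Eif4ebp2 with most reads, at 61430746 to 61430954, had 228 and 201 reads in KO, compared with 68 and 71 in WT, and its log2 fold change of 0.89 (SE 0.66) had an adjusted p of 0.894 by DESeq2. Next to the called site, the one at 61431253 to 61431409 had 22 and 36 reads in KO, compared with 5 and 43 in WT, a log2 fold change of -0.32 (SE 1.18). The called site held 21.1% and 43.5% of the reads of the gene in KO and 5.81% and 4.10% in WT. In the test of site use, diffSpliceDGE gave Eif4ebp2 a Simes p of 0.0280 and an adjusted p of 0.433. All 5 sites lay in the last 2965 bp of the gene. A site has 1 position for all libraries, so this is no comparison of KO and WT.

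**Figure D3:**
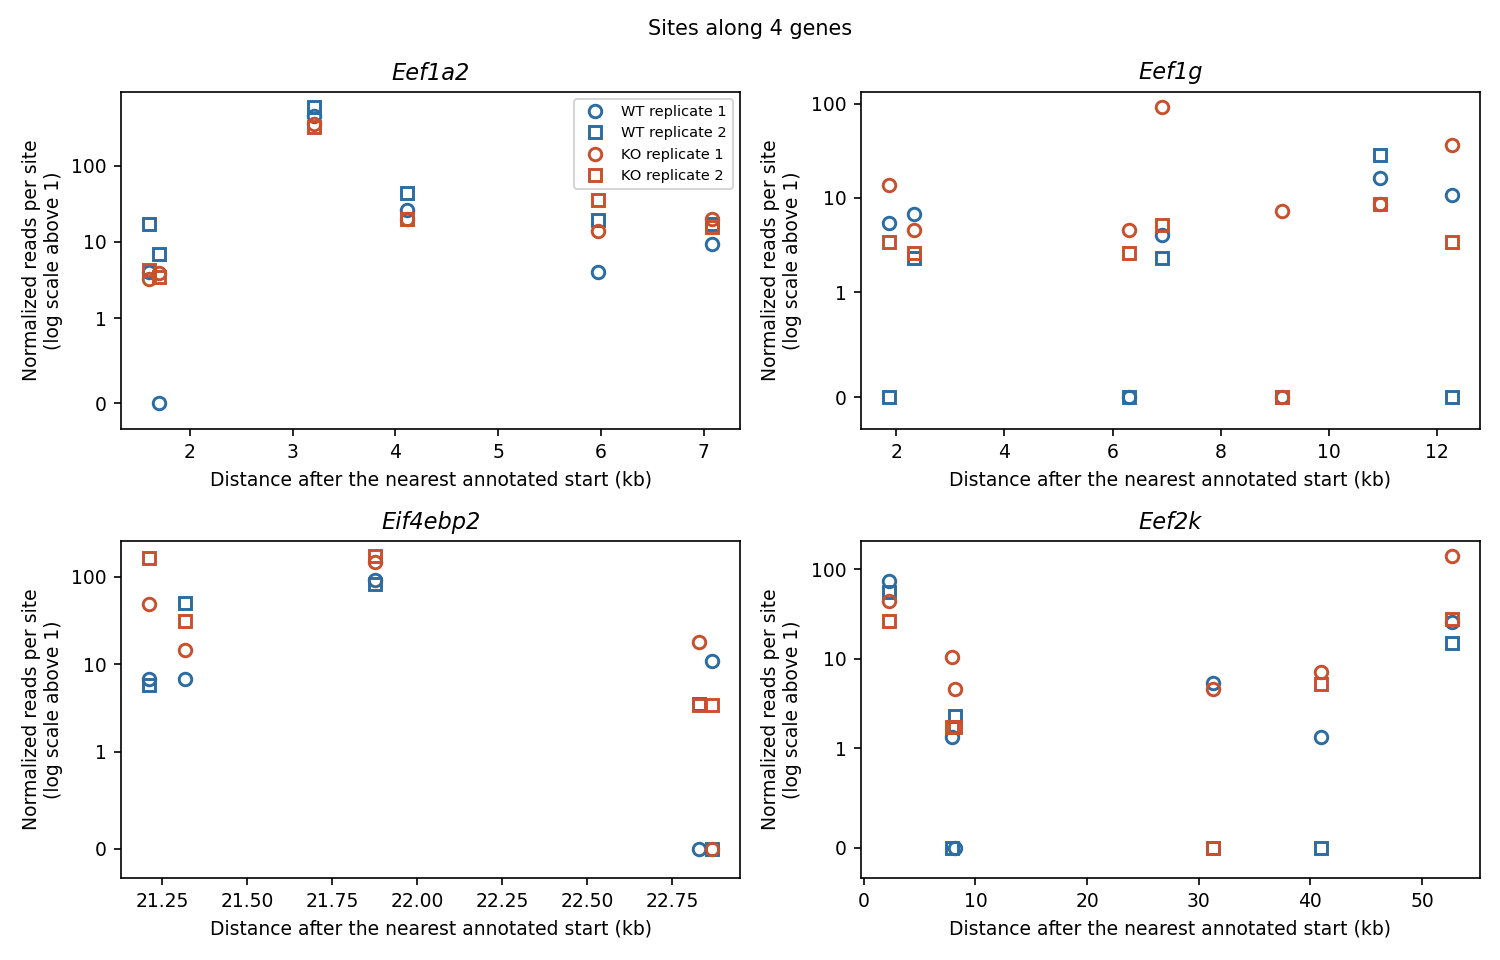
Normalized reads of each site on the strand of its gene (vertical axis, linear from 0 to 1 and logarithmic above) against its distance after the nearest annotated start (horizontal axis, kb) for Eef1a2, Eef1g, Eif4ebp2 and Eef2k in the 4 libraries. In Eif4ebp2 the site at 21213 bp has 48.6 and 163 normalized reads in KO, compared with 6.79 and 5.78 in WT, while in Eef1g the site at 6919 bp is high in KO replicate 1 only.

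**Figure D4:**
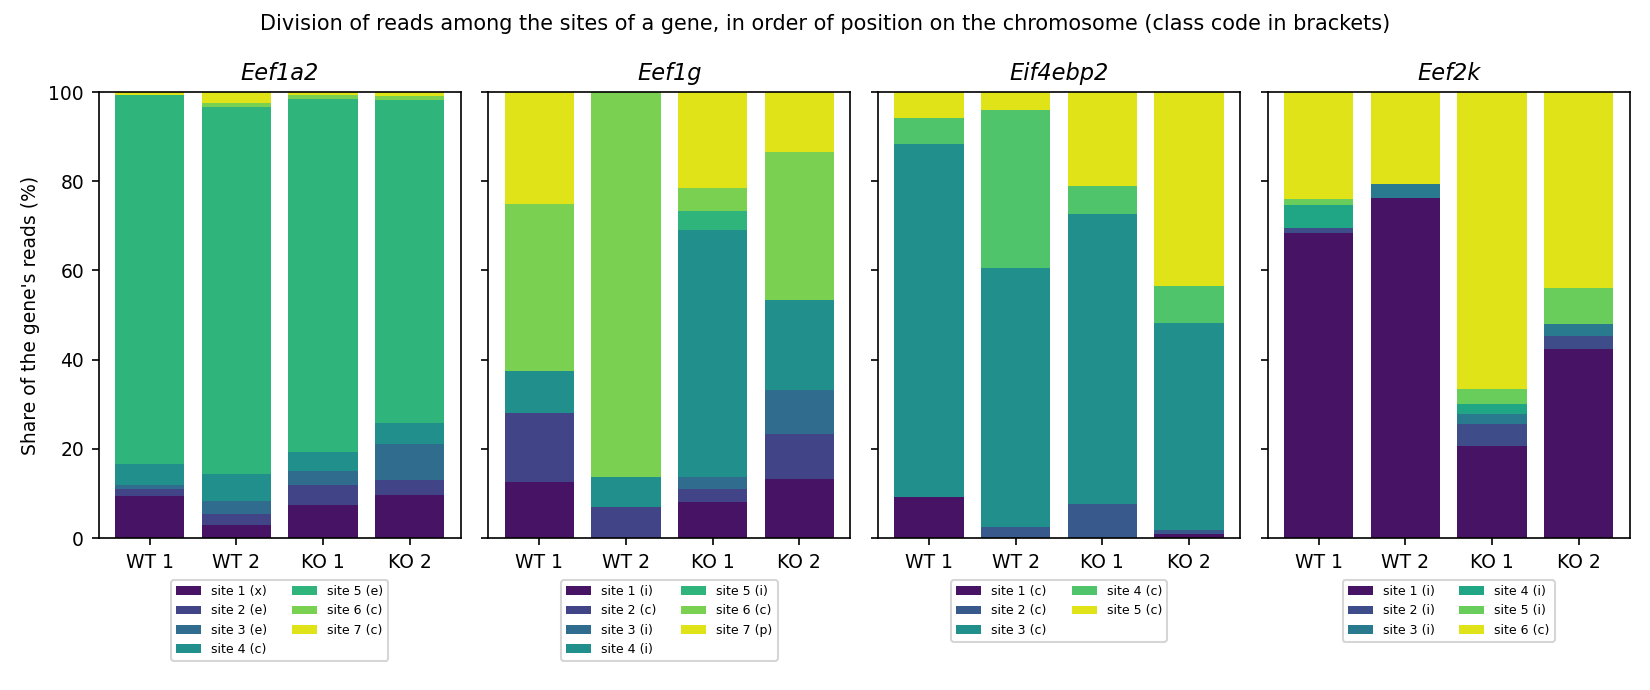
Share of the reads of a gene (vertical axis, percent) taken by each of its sites, stacked in order of chromosome position, in the 2 WT and 2 KO libraries for Eef1a2, Eef1g, Eif4ebp2 and Eef2k. One site takes 72.5% to 82.5% of Eef1a2 in every library, and the uppermost segment of Eif4ebp2, the called site, takes 21.1% and 43.5% in KO, compared with 5.81% and 4.10% in WT.

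Eif4ebp1, which encodes 4E-BP1, had 22 and 8 reads in KO, compared with 1 and 8 in WT, and was too sparse for an adjusted p. Its site 51 bp after the start, at 27260337 to 27260410 of chromosome 8, had 6 and 8 reads in KO, compared with 1 and 8 in WT. The other site, intronic and 3 bp wide at 27263817 to 27263819, had 16 reads in KO replicate 1 and 0 in the other libraries. Eif4ebp1 thus had reads in every library but was under the floor in WT replicate 1.

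Tpt1 encodes the translationally controlled tumour protein, an abundant protein of TOP-regulated mRNA that binds eEF1A. It had 65 and 63 reads in KO, compared with 2 and 0 in WT, all at 1 intronic site of 55 bp at 75846144 to 75846198 of chromosome 14. The sums of 128 and 2 reads gave a ratio of 38.2 after scaling, with a 95% counting interval of 10.4 to 319 (exact binomial) that covers counting error only. Both WT counts were under the floor of 3 reads, and the site passed the read filters through its KO reads alone. The size of the ratio therefore rests on a WT level that was not told from 0. As a gene it had a log2 fold change of 5.14 (SE 1.38), with an adjusted p of 0.0159 by DESeq2 and 0.0694 by edgeR. As a site it had a log2 fold change of 5.24 (SE 1.47), with an adjusted p of 0.0243 by DESeq2 and 0.122 by edgeR. The gene was no longer called without KO replicate 1, KO replicate 2 or WT replicate 2, with DESeq2 adjusted p of 0.279, 0.550 and 0.236 and log2 fold changes of 5.35, 4.88 and 4.05.

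The reads of Tpt1 did not include any exonic site. Its processed pseudogene Tpt1-ps3 on chromosome 6 held 134 and 121 reads in KO, compared with 60 and 93 in WT at 3 sites contained in its transcript, with a log2 fold change of -0.09 (SE 0.58) and an adjusted p of 0.992 by DESeq2. Parent and pseudogene share nearly the same exon sequence, and from which of them the reads at the pseudogene came was not tested. With both summed, an alternative added after the data were seen, the log2 fold change was 0.47 and the DESeq2 adjusted p was 0.931. The call of Tpt1 therefore concerns reads at an intronic site, and the level of its mRNA was not measured by it. The Tpt1 site does not overlap Snora31, the small nucleolar RNA gene within Tpt1.

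Over single sites, 24 of the 49 had an adjusted p with DESeq2. Of these, 2 were called higher in KO, those of Eif4ebp2 and Tpt1, and 0 were called lower, where 2.33% of 11112 sites in the series were called higher and 0.882% lower. At an unadjusted p under 0.05 there were 4 sites, all higher in KO, and the other 2 were those of Eef1g and Eef2k above. The share of all sites at that threshold was not taken, so these 4 are a description only. With edgeR 0 of 22 sites tested were called, where 0.712% of all sites were, while 3 were higher and 1 was lower at an unadjusted p under 0.05. Both KO libraries were above both WT libraries at 8 of the 24 sites and below them at 6, against 23% and 17.4% of all tested sites. The median log2 fold change of the 24 sites was 0.16, and that of all tested sites was 0.10. For site use within a gene, 6 of the 10 genes could be tested and 0 were called, where 1.35% of 2145 genes were. In this test 1 gene by the Simes method and 2 by the gene-level F test had an unadjusted p under 0.05. Only sites with enough reads entered it, which were 2 of 7 in Eef1g, 2 of 6 in Eef2k and 3 of 5 in Eif4ebp2. The intronic site of 4 bp in Eef1g was not among them.

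The spread over libraries was described by site width, with no test of the difference. Among the 17 sites of 10 bp or less, the top library held a median of 59.8% of the normalized reads, and 3 of them had over 80% in 1 library. Among the 32 broader sites the median was 48.5%, and 1 had over 80% in 1 library. Over all sites of the series the medians were 55.6% and 47.0%. Of those sites 20.4% of the narrow and 6.42% of the broader had over 80% in 1 library, against 17.6% and 3.12% here. The top library was KO replicate 1, the deepest, in 9 of the 17 narrow and 5 of the 32 broader sites, where it was so in 7965 of 19304 and 5889 of 22903 sites of the series.

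The other genes of the translation machinery were listed in 5 groups, 96 genes in all, of which 70 were detected and 35 had an adjusted p. Among these 1 was called higher and 1 lower, both in the group of cap binding, where 1.71% and 0.96% of all tested genes were. Of the 26 genes of elongation, termination and recycling 13 were detected, 4 had an adjusted p and 0 were called with DESeq2 or edgeR, with 2 and 1 at an unadjusted p under 0.05. Over the 4 genes with an adjusted p the median log2 fold change was -0.07. Gspt1 and Etf1, the termination factors, had log2 fold changes of -0.05 (SE 0.70) and -0.09 (SE 0.79). Eif5a, which helps the ribosome past difficult peptide bonds, was not in the table. The 5 mitochondrial elongation genes were all detected but too sparse for an adjusted p, with edgeR calling 0 of 2 tested and 1 at an unadjusted p under 0.05 by each tool. Of these, Gfm1, a mitochondrial translocase, had 17 and 19 reads in KO and 0 in both WT libraries, and Guf1 had 23, 5, 8 and 15 reads in KO 1, KO 2, WT 1 and WT 2.

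In the group of eIF4F and cap binding, 12 of 14 genes were detected and 10 had an adjusted p. Eif4e3, a cap-binding relative of eIF4E, had 1649 and 160 reads in KO, compared with 31 and 21 in WT. Of its 1861 reads 1810 lay at the site of 24 bp at 99626405 to 99626428 of chromosome 6. The log2 fold change of the gene was 4.05 (SE 0.73), with an adjusted p of 8.52e-06 by DESeq2 and 0.0712 by edgeR. KO replicate 1 held most of these reads, and without it the log2 fold change was 2.02 with an adjusted p of 0.775 by DESeq2. Without WT replicate 1 or WT replicate 2 the log2 fold change was 4.46 or 3.70, of like size to that in all libraries, though the adjusted p was then 0.325 and 0.675. Larp1, which binds the TOP of mRNAs that carry one, was lower in KO with 76 and 56 reads against 116 and 138. Its log2 fold change was -1.81 (SE 0.55), with an adjusted p of 0.0543 by DESeq2 and 0.163 by edgeR. An intronic site of 2 bp in Larp1, at 58030111 to 58030112 of chromosome 11, had 7 and 17 reads in KO, compared with 73 and 74 in WT, and without intronic sites the log2 fold change of Larp1 was -0.30. With any single library left out the log2 fold change of Larp1 stayed at -1.85 to -1.76, though it was not called in these smaller groups (DESeq2 adjusted p 0.329 to 0.658).

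Of 33 other initiation factors 25 were detected, 13 had an adjusted p and 0 were called, with 3 at an unadjusted p under 0.05 by DESeq2 and 2 by edgeR, which called 0 of 17. Eif3a and Eif5b, the most read, had log2 fold changes of -0.65 (SE 0.45) and -0.24 (SE 0.49). Of 18 genes of mTORC1, S6 kinase and calmodulin, the inputs to the 4E-BPs and eEF2K, 15 were detected and 8 had an adjusted p. In that group 0 were called by either tool and 0 had an unadjusted p under 0.05 in either, and the 2 most read, Calm3 and Deptor, had log2 fold changes of -0.30 (SE 0.50) and 0.16 (SE 0.54).

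Markers of other cell types were read beside these results. Fibroblast markers were detected for 8 of 8 genes, and their summed normalized reads were 3281 and 3143 in KO, compared with 4649 and 4471 in WT. Of the 7 fibroblast markers tested 0 had a log2 fold change above 0, and Sparc was lower, with a log2 fold change of -1.35 (SE 0.43) and an adjusted p of 0.0739 by DESeq2, but of 0.255 by edgeR. With any single library left out the log2 fold change of Sparc was -1.53 to -1.18 and it was not called (DESeq2 adjusted p 0.285 to 0.871). Adipocyte markers, 5 of 7 detected without Cidec and Retn, summed to 5881 and 2943 in KO, compared with 5829 and 3262 in WT. Fabp4 made up most of each sum, with 5792 and 2861 in KO, compared with 5720 and 3197 in WT. Fabp4 and Lep were higher in replicate 1 of both genotypes, while Adipoq, Plin1 and Cfd were so in WT only. Blood and immune markers, 5 of 9 detected, summed to 97.1 and 103 in KO, compared with 314 and 161 in WT. Those without reads were Hba-a2, Hbb-bs, Hbb-bt and Cd68. The detected ones did not move together. Ptprc, Adgre1 and Lyz2 were lower in both KO libraries than in both WT libraries, Alas2 was higher, and Hba-a1 overlapped. Endothelial markers, 5 of 5 detected, summed to 52.5 and 73.4 in KO, compared with 86.9 and 87.2 in WT. These did not move together either. Pecam1 was lower in both KO libraries than in both WT libraries, while Cdh5, Kdr, Tek and Emcn overlapped. Only 2 of 6 Schwann cell and nerve markers were detected, at 15.3 and 40.2 in KO, compared with 28.0 and 8.72 in WT. The part of these cells in the values of the elongation genes was not tested, and in bulk RNA fewer cells of a type and less RNA per cell cannot be told apart.

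Finally, genes with a pattern like that of Eef1a2 and Eef2 over the 4 libraries were sought among genes with a mean of 50 or more normalized reads, by the root mean square difference of centred log2 normalized reads (pseudocount 0.5). Nearest to Eef1a2 among 2398 genes were March6, Pgam2 and Ddr2, at differences of 0.04, 0.04 and 0.06. Pgam2 is the muscle phosphoglycerate mutase, and it had 453 and 454 normalized reads in KO, compared with 586 and 793 in WT. Nearest to Eef2 among 2399 genes were Zfp715, Gm14335 and Bag3, at 0.29, 0.30 and 0.31. With 4 libraries many genes can share a pattern, so these neighbours are a description only.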

How the data were processed

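The authors deposited 1 table of raw read counts, with a row per clustered start site and a column per library. Genome build GRCm38.p5 was named in the submitters' processing notes, the class codes were Cuffcompare's, and coordinates are counted from 1. Mapping and clustering were described for the 3′-end libraries of the same study, and the settings used for the 5′ ends are not given in the sources used here. No molecular identifiers were described, so PCR copies counted as separate reads. The lowest total of a site was 10 reads over the 4 libraries, which admits sites of the deeper KO libraries more readily.

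Groups and replicate numbers came from the labels. Columns of per-sample values without a label numbered 0. Following the study's methods, counts per site were compared with DESeq2 (version 1.42.0, R version 4.3.3), and counts summed per gene were compared in the same way, with the Wald test and Benjamini-Hochberg adjusted p under 0.1 over all features. Independent filtering required a mean above 8.76 for sites and 16.5 for genes. As an alternative, edgeR (version 4.0.16) was run with its quasi-likelihood test, site use was tested with its diffSpliceDGE, and the Eef1a2 share with an exact permutation test. The fits were tested on simulated data. Distances and sequences used RefSeq tables of GRCm38.p6 (Python 3.11.15, pandas 2.3.3), which held all 10 genes. No exon lengths were used, so levels were not compared between genes other than by the share named above. Values are given as normalized reads with SD over 2 libraries or per library. Counts at an unadjusted p under 0.05 are given without their share over all features, which was not taken.

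Named were the 10 genes, for each its most read site, the site nearest to its start and any called site, from each translation list the called genes or otherwise the 2 most read, and the 3 genes most like Eef1a2 and Eef2. Other sites shown were chosen after their values were seen. The genes, lists and tests were chosen with earlier results of these data known. Alternatives covered normalization, filters, threshold, site classes, a replicate block and leaving out each library.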

Additional observations from a re-analysis of the deposited data

How the results depend on the processing

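Of the counts of called genes and sites, those of genes and sites called lower in KO and of changed site use stayed at 0 under every alternative run. The 1 gene called higher, Tpt1, became 0 without intronic sites (its only site is intronic), with Tpt1 and Eef1a1 each summed with its pseudogene, and with edgeR on library totals (adjusted p 0.112), the last 2 chosen after seeing the data. With each library left out it was 0 to 1. The 2 sites called higher became 0 with edgeR and TMM factors, and 0 to 2 with a library left out. Their log2 fold changes were 4.11 to 7.84 for Tpt1 and 2.93 to 4.74 for Eif4ebp2 with a library left out. Without KO replicate 1 and without WT replicate 2 the Eif4ebp2 site was the 1 site still called.

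Over sites in general, the deviations of same-numbered libraries correlated at 0.06 (12055 sites), so the numbers were not read as pairs. The intronic share and Fabp4, which held most of the adipocyte sum, were nevertheless higher in replicate 1 of both genotypes. With a replicate block, Sparc was not called by either tool (adjusted p 0.109 by DESeq2 and 0.164 by edgeR), nor was Larp1 by DESeq2 (0.152), while among the 10 genes DESeq2 called 1 gene and 2 sites and edgeR called 1 gene and 0 sites, and the count for site use was 0.

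The difference in the Eef1a2 share was -8.75 to 2.06 percentage points with a library left out. Log2 fold changes that turned were, per gene, Eef1a1 (-0.88 to 0.15), Eef1b2 (-0.13 to 0.41), Eef1g (-0.62 to 1.96), Eef1d (-1.36 to 0.89), Eef2 (-1.54 to 1.34) and Eef2k (-0.56 to 1.07). Per site they were those of Eef1a1 at 78480393 (-0.44 to 0.16), Eef1d at 75896361 (-0.97 to 0.69), Eef2 at 81179537 (-1.53 to 1.54) and Eif4ebp1 at 27260337 (-0.77 to 1.95). Without sites of 10 bp or less Eef1a1 was at 0.035 and Eef1g at -1.09, and with library totals the Eif4ebp1 site was at -0.10. In that setting the median over all tested sites was -0.05, against 0.10 in the scaling used for the report. Apart from the construction named for Tpt1, the cause was not tested.

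With 1 library left out, its group has 1 sample, which is assumed to vary like the others. Depth limits Eif4ebp1, Eef1d and Eef2, with 39, 78 and 116 reads in all.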
